A study of Mus musculus with 16 samples.

Results

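Translation initiation factors are the proteins that load the small ribosomal subunit with the initiator tRNA, bring it to the capped end of an mRNA, find the start codon and join the large subunit. Their genes were taken as every symbol of the deposited count table that starts with Eif and a digit from 1 to 6, without the kinases named Eif2ak and the repressors named Eif4ebp. The rule found 45 genes among 13320, all of which entered the test, and all 45 matched 1 gene of GENCODE M21. Eif3j1, Eif3j2 and Eif4e1b were not analysed here.

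The libraries hold mRNA from the quadriceps, a muscle of the thigh, of male mice of the strain CD2F1, which were 8 weeks old at the start, in 4 groups of 4. C26 cells are a transplantable colon carcinoma of the mouse, widely used as a model of cancer cachexia. Splenic C26 mice received the cells by injection into the spleen, which models spread to the liver, and their sham-operated partners received saline. Subcutaneous C26 mice received the cells under the skin, and what their control mice received is not stated. No transgene, knockout or drug is named for any group. The labels do not tie each library to an animal of its own, so p-values measure only the spread among these samples, which could be technical. By their titles, sham belongs with splenic C26 and control with subcutaneous C26, and the tumour comparisons follow those pairs. Values of single libraries are given from replicate 1 to replicate 4.

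Total gene counts lay between 25.9 and 34.9 M, and the smallest count of any initiation factor gene in any library was 8. Muscle fibre markers (7 of 7 in the table, among them Acta1 and Ckm) summed to 109877 to 250671 CPM (reads of a gene scaled to a common library size) over the 16 libraries. The highest sum was that of subcutaneous C26 replicate 3, where the rest of its group reached at most 155682 CPM. Single fibre markers differed. Myh1 rose by 0.91 ± 0.28 on the log2 scale in splenic C26 (edgeR adjusted p = 0.0129). In subcutaneous C26 Ttn rose by 0.78 ± 0.29 (0.0344) and Mb fell by 1.9 ± 0.56 (0.0116). No other fibre marker passed. Markers of other tissues and cell types were also detected, and some differed between groups. The 8 hepatocyte markers, all in the table and none at 0 in every library, summed to 133 CPM in splenic C26 replicate 1 and to 30.6 to 240.2 CPM in control, while no other library of sham, splenic C26 or subcutaneous C26 exceeded 3.56 CPM. The 8 neutrophil and marrow markers, likewise all present, summed to between 0.581 and 0.823 CPM in sham, between 3.21 and 172 CPM in splenic C26 with the highest value in replicate 3, 0.617 to 46.8 CPM in control and 2.32 to 26.8 CPM in subcutaneous C26. Of 4 proliferation markers 2 were in the table, and they summed to 61.4 CPM in subcutaneous C26 replicate 4 and to no more than 9.92 CPM elsewhere. The 3 fibro-adipogenic markers, all present, summed to 660 to 759 CPM in sham. Their sum was 739.6 CPM in splenic C26 replicate 1 and 287 to 334 CPM in replicates 2 to 4, with 464 to 987 CPM in control and 272 to 632 CPM in subcutaneous C26. Of these, Lum fell by 2.2 ± 0.54 on the log2 scale in splenic C26 (adjusted p = 0.00409) and also fell in subcutaneous C26 (adjusted p = 0.0049). The 3 endothelial markers, all present, summed to 172 to 217 CPM in sham and 148 to 277 CPM in splenic C26 with the highest value in replicate 1, and to 210 to 236 CPM in control and 117 to 152 CPM in subcutaneous C26. They did not move as one. Kdr fell by 1.28 ± 0.17 in splenic C26 and 1.79 ± 0.17 in subcutaneous C26. Pecam1 rose by 0.71 ± 0.17 in splenic C26 (edgeR adjusted p = 0.0028) and gave -0.08 ± 0.16 in subcutaneous C26. Cdh5 gave 0.20 ± 0.17 and -0.73 ± 0.17. The 2 of 5 erythroid markers in the table summed to 4.02 to 5.63 CPM in sham, 11.4 CPM or more in splenic C26, 3.7 to 12.4 CPM in control and 8.09 to 114 CPM in subcutaneous C26, and Alas2 rose by 2.18 ± 0.50 and 2.07 ± 0.49. The sum of the 4 macrophage markers, all present, overlapped between groups at 41.4 to 117 CPM, but single markers differed. In splenic C26 Cd68 rose by 2.28 ± 0.61 (edgeR adjusted p = 0.00643) and Csf1r fell by 1.07 ± 0.41 (0.0416). In subcutaneous C26 none of the 4 had an adjusted p under 0.05. No marker in the table was at 0 in every library. The part of these other cell types in the results was not tested. In such bulk RNA, fewer cells of a type and less RNA per cell cannot be told apart.

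As background, the factors act in a fixed order. The initiator tRNA is delivered by the GTPase eIF2, which is recharged by the exchange factor eIF2B, and stress kinases slow initiation by phosphorylating eIF2. The cap of the mRNA is bound by eIF4E, which joins the scaffold eIF4G and the helicase eIF4A into the eIF4F complex, and the repressors called 4E-binding proteins compete for eIF4E under control of mTOR. In skeletal muscle, initiation is the step at which feeding, insulin and contraction are known to set the rate of protein synthesis.

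Most initiation factor transcripts were more abundant in muscle of tumour-bearing mice by either route, and none passed as lower. In splenic C26 against sham 37 of 45 genes (82.2%) rose, 0 fell and 8 did not pass, where 28.1% of all 13320 genes were called higher and 23.9% lower (52.0% in either direction). In subcutaneous C26 against control 36 of 45 (80%) rose, 0 fell and 9 did not pass, against 27.0% higher and 23.1% lower among all genes. All 36 genes that rose in subcutaneous C26 also rose in splenic C26, and Eif5a was called in splenic C26 alone, a difference between routes that did not itself pass (0.16 ± 0.26 on the log2 scale, adjusted p = 0.978). Here and below a gene passed at an adjusted p under 0.05 in edgeR's quasi-likelihood test with Benjamini-Hochberg adjustment over all genes, and errors of log2 fold changes are SE. The median log2 fold change of the 45 genes was 0.75 in splenic C26 and 0.68 in subcutaneous C26, beside -0.03 and -0.02 over all genes. An estimated rise of at least 1 on the log2 scale was found for 14 of the called genes in splenic C26 and 13 in subcutaneous C26. The share of all genes that were called with a rise of that size was not taken, so nothing is read from these counts.

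**Figure D1:**
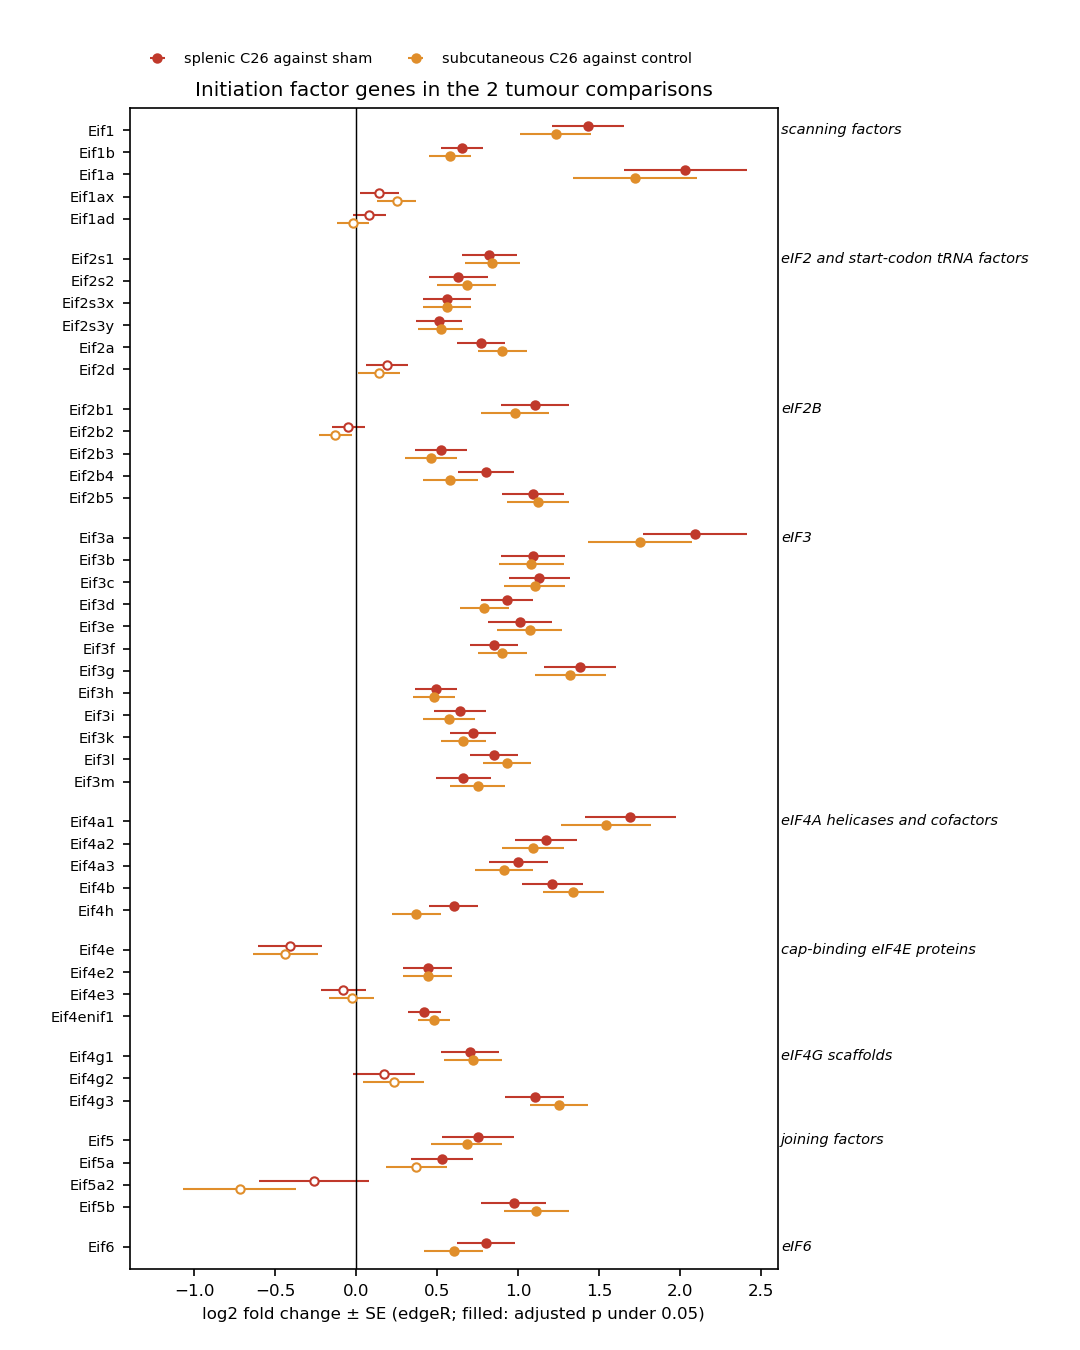
Log2 fold changes with SE (horizontal axis) of the 45 initiation factor genes, ordered by role, in splenic C26 against sham (red) and subcutaneous C26 against control (orange). Filled points passed at an adjusted p under 0.05: 37 and 36 genes lie to the right of 0 as filled points and none to the left, while Eif4e, at -0.41 and -0.44, is open.

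As a share of the raw counts, the genes were also higher in tumour-bearing mice. Together the 45 genes took 0.641% to 0.668% of all counts in the 8 tumour-free libraries. They took 0.778%, 1.1%, 1.1% and 1.13% in splenic C26 and 1.11%, 1.17%, 0.819% and 1.05% in subcutaneous C26, so all 8 tumour libraries lay above all 8 tumour-free ones. Splenic C26 replicate 1 and subcutaneous C26 replicate 3 were the lowest of their groups. Splenic C26 replicate 1 held the lowest value of its group for 42 of 45 genes, and subcutaneous C26 replicate 3 for 28 of 45. The latter also held the highest value for 8. Among tumour-free libraries, sham replicate 2 and control replicate 1 each held the lowest value of their group for 26 of 45, so 28 is not far from that. These ranks were not taken over all genes. Against the mean of the tumour-free libraries, the median gene stood 0.17 higher on the log2 scale in splenic C26 replicate 1 and 0.83 to 0.93 higher in the other 3, and 0.55 higher in subcutaneous C26 replicate 3 against 0.73 to 0.88 in the other 3. The libraries of splenic C26 lay entirely above sham for 25 genes (21.1% of all genes did), and for 39 without replicate 1 (29.7% of all genes). Those of subcutaneous C26 lay entirely above control for 36 genes (25.2% of all genes), and for 36 without replicate 3 (32.2% of all genes). With 1 library fewer, separate groups are easier to reach for any gene.

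**Figure D2:**
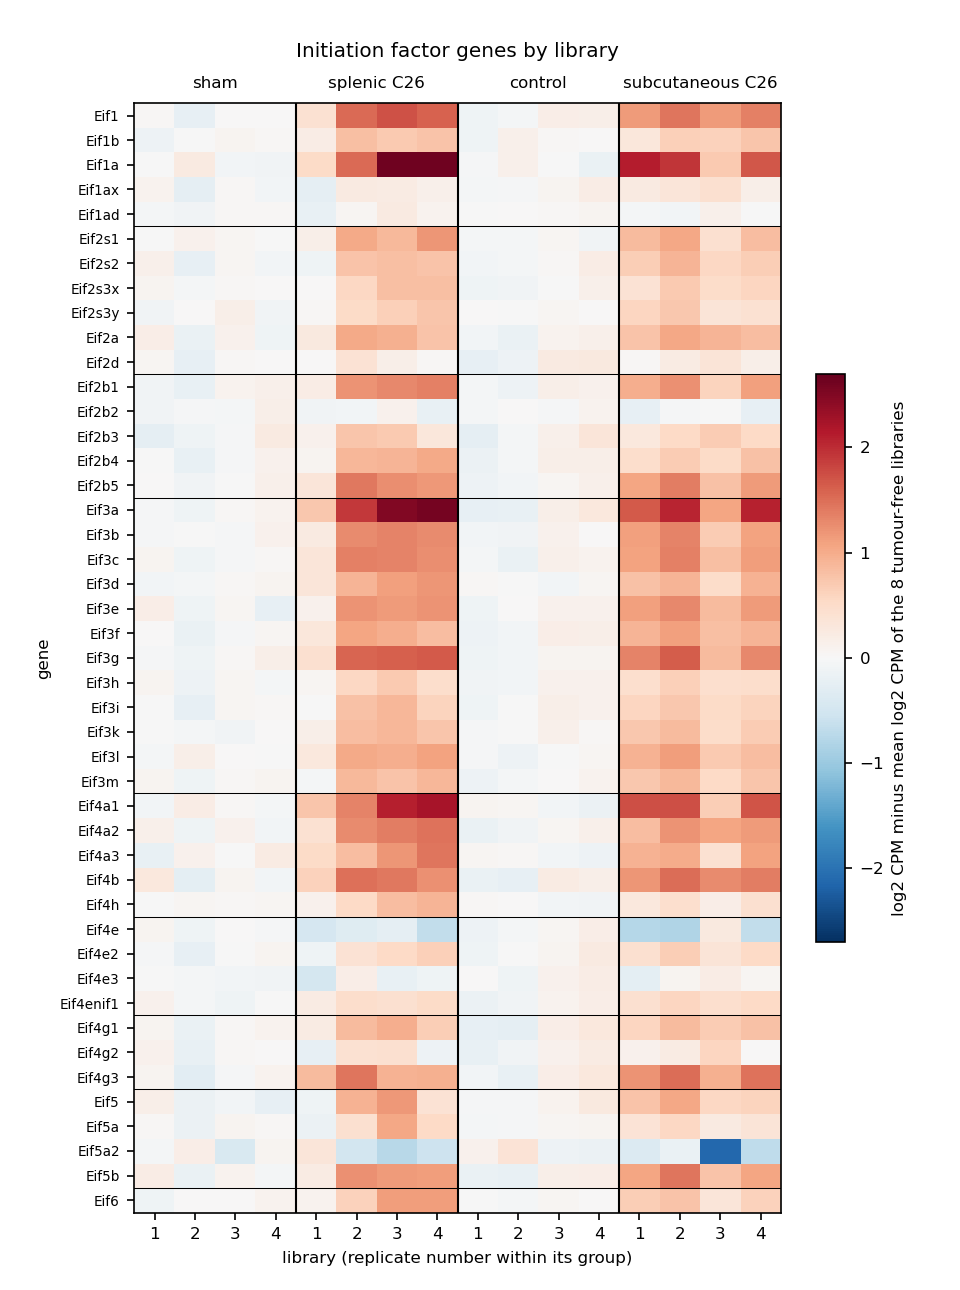
Log2 CPM of each initiation factor gene (rows, by role) in each library (columns, by group and replicate), minus the mean log2 CPM of the 8 tumour-free libraries. Red marks higher and blue lower values; replicate 1 of splenic C26 is the palest column of its group, and the row of Eif4e is blue in 7 of the 8 tumour libraries.

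With splenic C26 replicates 1 and 3, control replicate 1 and subcutaneous C26 replicates 3 and 4 all left out, 37 genes were higher and 1 lower in splenic C26, and 36 higher and 1 lower in subcutaneous C26, the lower gene being Eif4e both times; over all genes that fit called 4106 higher and 3931 lower (30.8% and 29.5%), and 3816 and 3735 (28.6% and 28%). In it the subcutaneous call of Eif2b3 was lost (0.28, adjusted p = 0.195). That fit kept control replicates 2 and 4, whose hepatocyte markers summed to 148 and 240.2 CPM, so transcripts of another tissue remained in it. Scaling by the upper quartile put the median over all genes at -0.24 and -0.26, and then 33 genes were called higher and 2 lower (Eif2b2 and Eif4e) in splenic C26. In subcutaneous C26 that scaling gave 29 higher and 4 lower (Eif1ad, Eif2b2, Eif4e and Eif5a2). The calls lost with it in splenic C26 were those of Eif2b3 (adjusted p = 0.105), Eif4e2 (0.133), Eif4enif1 (0.0549) and Eif5a (0.117). In subcutaneous C26 it ended those of Eif2b3 (0.217), Eif2b4 (0.0517), Eif3h (0.0537), Eif4h (0.376), Eif4e2 (0.15), Eif5 (0.0658) and Eif6 (0.0553). Over all genes it turned 3745 higher and 3186 lower calls into 2749 and 4384 in splenic C26, and 3593 and 3072 into 2412 and 4509 in subcutaneous C26.

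Among the scanning factors, Eif1, Eif1a and Eif1b rose and Eif1ax and Eif1ad did not pass in either comparison. Eif1a and Eif1ax both encode eIF1A, which with eIF1 holds the small subunit in its scanning state. Eif1a (chromosome 18, 46597701 to 46616456, plus strand, mm10) stood at 11.7, 13.8, 11.1 and 11 CPM in sham and at 16.7, 33.7, 72.8 and 72.1 CPM in splenic C26. In the other series it stood at 11.4, 12.9, 11.7 and 10.4 CPM in control and 51, 44.9, 19.2 and 37.7 CPM in subcutaneous C26. No tumour library overlapped with a tumour-free one, and replicate 1 of splenic C26 and replicate 3 of subcutaneous C26 were the lowest of their groups. The log2 fold changes of Eif1a were 2.03 ± 0.38 (adjusted p = 0.000745) and 1.72 ± 0.38 (adjusted p = 0.00209), corresponding to 4.09-fold in splenic C26. Its X-linked paralogue Eif1ax stood at 57.4, 45.3, 55.3 and 51.4 CPM in sham and 45.3, 63.4, 62.4 and 59.6 CPM in splenic C26, and at 51.7, 52.8, 56.8 and 61.5 CPM in control and 64, 67.5, 72.6 and 60.5 CPM in subcutaneous C26. These groups overlapped in both series, with log2 fold changes of 0.14 ± 0.12 and 0.25 ± 0.12. Without splenic C26 replicate 1 Eif1ax passed (0.25, adjusted p = 0.0388). By library, the Eif1a to Eif1ax log2 ratio of counts moved from a range of -2.31 to -1.71 in sham to -1.44 to 0.27 in splenic C26, and from -2.56 to -2.03 in control to -1.92 to -0.33 in subcutaneous C26, with no overlap in either series.

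Eif1, which encodes the factor that guards start-codon choice, was the most abundant initiation factor transcript per kilobase of exon, at 200.7 CPM per kb in sham and 541.9 in splenic C26. By library it stood at 443, 369, 434 and 438 CPM in sham and 578, 1240, 1426 and 1304 CPM in splenic C26, and at 397, 414, 493 and 486 CPM in control and 962, 1177, 962 and 1108 CPM in subcutaneous C26. The groups did not overlap, and Eif1 rose by 1.43 ± 0.22 (adjusted p = 0.000228) and 1.23 ± 0.22 (adjusted p = 0.000544). Eif1b, its close paralogue, rose by 0.65 ± 0.13 and 0.58 ± 0.13. Eif1b stood at 19.1, 20.8, 22 and 21.4 CPM in sham and 24.2, 36.7, 34.4 and 35.7 CPM in splenic C26, and at 19.3, 22.9, 21.5 and 21 CPM in control and 26.1, 32.9, 32.2 and 35.2 CPM in subcutaneous C26. Relative to Eif1b, the log2 count ratio of Eif1 was higher in all tumour libraries than in their tumour-free group, by 0.72 and 0.66 on average. Eif1ad, which encodes a protein with an eIF1A-like domain, stood at 20.5, 19.9, 21.8 and 21.7 CPM in sham and 18.5, 22.1, 25.1 and 22.8 CPM in splenic C26, with log2 fold changes of 0.08 ± 0.10 and -0.02 ± 0.10. Its level in control was 21, 21.4, 21.6 and 22.3 CPM and in subcutaneous C26 20.5, 20.3, 23.4 and 21.1 CPM, so its groups overlapped throughout.

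All 3 subunits of eIF2 rose in both comparisons. Eif2s1 encodes the alpha subunit, which carries the serine that stress kinases phosphorylate, and stood at 44.6, 48.7, 46.5 and 44.6 CPM in sham and 50.3, 91.3, 82 and 102 CPM in splenic C26. In control it ranged from 41.7 to 46.3 CPM and in subcutaneous C26 it stood at 80.7, 92.1, 60.8 and 79.4 CPM. Neither tumour group overlapped with its tumour-free group, and the log2 fold changes were 0.82 ± 0.17 (adjusted p = 0.00163) and 0.84 ± 0.17 (adjusted p = 0.00142). Eif2s2, the beta subunit, rose by 0.63 ± 0.18 and 0.68 ± 0.18. The gamma subunit, which binds GTP and the tRNA, is encoded by an X-linked and a Y-linked gene with similar sequences, so the split of reads between them is uncertain. Eif2s3x stood at 32.9, 30.1, 31.9 and 31.4 CPM in sham, 31.4, 46.1, 54.4 and 54.5 CPM in splenic C26, 28.8, 29.3, 30.8 and 34.2 CPM in control and 40.6, 50.5, 43.9 and 46.5 CPM in subcutaneous C26. Eif2s3y stood at 45.6, 49.1, 54.6 and 45.6 CPM in sham, 50.1, 69.6, 76.9 and 82 CPM in splenic C26, 49.2, 48.3, 51 and 49.2 CPM in control and 73.5, 80.9, 62.7 and 65.6 CPM in subcutaneous C26. Both rose by similar estimates, Eif2s3x by 0.56 ± 0.15 and 0.56 ± 0.15 and Eif2s3y by 0.51 ± 0.14 and 0.52 ± 0.14, and their log2 ratio overlapped between groups, with mean differences of 0.03 and 0.05.

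Of the genes for other tRNA-delivering factors, Eif2a rose and Eif2d did not pass. Eif2a, which is not a subunit of eIF2, stood at 58.2, 45.9, 56.4 and 47.9 CPM in sham and 62.5, 105, 100.5 and 88.1 CPM in splenic C26, and at 49.2, 45.6, 55.6 and 56.7 CPM in control and 88, 107, 98 and 92.7 CPM in subcutaneous C26. No libraries overlapped, and Eif2a rose by 0.77 ± 0.15 (adjusted p = 0.000946) and 0.90 ± 0.15 (adjusted p = 0.000379). Eif2d, a factor of non-canonical initiation and ribosome recycling, stood at 28.1, 23.2, 27.8 and 27.3 CPM in sham and 27.3, 35.6, 30.4 and 27.8 CPM in splenic C26, and at 23.5, 24.8, 32.4 and 32.5 CPM in control and 27.7, 31.6, 34.7 and 30.4 CPM in subcutaneous C26. Its groups overlapped, with log2 fold changes of 0.19 ± 0.13 and 0.14 ± 0.13.

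In the exchange factor eIF2B, which reloads eIF2 with GTP, 4 of 5 subunit genes rose and Eif2b2 did not pass in either comparison. Eif2b5 encodes the catalytic epsilon subunit and stood at 54, 50.2, 53.6 and 58.7 CPM in sham and 67.4, 144, 129 and 121 CPM in splenic C26, and at 49, 50.9, 55.5 and 59.1 CPM in control and 113, 140.4, 93.5 and 120.1 CPM in subcutaneous C26. It rose by 1.09 ± 0.19 (adjusted p = 0.000431) and 1.12 ± 0.19 (adjusted p = 0.000377) with no overlap. Eif2b1, the alpha subunit, stood at 32.2, 29.8, 36.5 and 37.7 CPM in sham and 39.4, 80.2, 84.3 and 88.3 CPM in splenic C26, and at 33.1, 31.3, 38.3 and 37.3 CPM in control and 68.2, 80.4, 52.3 and 74.5 CPM in subcutaneous C26. Its log2 fold changes were 1.10 ± 0.21 (adjusted p = 0.000747) and 0.98 ± 0.21 (adjusted p = 0.00165), again with no overlap. Eif2b2, the beta subunit (chromosome 12, 85219481 to 85226628, plus strand), stood at 36.9, 38.4, 38.3 and 44.3 CPM in sham and 37.1, 37.4, 42.9 and 34.6 CPM in splenic C26, and at 38.3, 39.6, 38.4 and 42.3 CPM in control and 33.7, 38.6, 39.2 and 33.8 CPM in subcutaneous C26. The groups overlapped in both series, and its log2 fold changes were -0.05 ± 0.10 (adjusted p = 0.658) and -0.13 ± 0.10 (adjusted p = 0.301). Eif2b4 rose by 0.80 ± 0.17 and 0.58 ± 0.17, and Eif2b3 by 0.52 ± 0.16 and 0.46 ± 0.16. The call of Eif2b3 in splenic C26 was lost without splenic C26 replicate 2 (adjusted p = 0.0526) or 3 (0.0514). In subcutaneous C26 it was lost without control replicate 1 (0.101) or 2 (0.0779), or without subcutaneous C26 replicate 2 (0.0747), 3 (0.0607) or 4 (0.0658).

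Every measured subunit of eIF3, the large complex that coats the small ribosomal subunit and links it to eIF4G, rose in both comparisons, 12 of 12 each time. The size of the rise differed among subunits, from 0.49 to 2.09 on the log2 scale in splenic C26 (median 0.89) and from 0.48 to 1.75 in subcutaneous C26 (median 0.92). Eif3a, the largest subunit and a scaffold of the complex (chromosome 19, 60761117 to 60790658, minus strand), was at the top in both. It stood at 218, 204, 228 and 236 CPM in sham and 369.8, 828, 1255 and 1327 CPM in splenic C26, and at 191, 194, 246 and 269 CPM in control and 698, 925, 467 and 931 CPM in subcutaneous C26. The 8 tumour libraries lay above all 8 tumour-free ones, and the log2 fold changes were 2.09 ± 0.32 (adjusted p = 0.000232) and 1.75 ± 0.32 (adjusted p = 0.000643). Eif3g, an RNA-binding subunit, followed with 1.38 ± 0.22 (adjusted p = 0.000273) and 1.32 ± 0.22 (adjusted p = 0.000366). Eif3b and Eif3c, further core subunits, rose by 1.09 ± 0.20 and 1.13 ± 0.19 in splenic C26 and by 1.08 ± 0.20 and 1.10 ± 0.19 in subcutaneous C26. The smallest rise in both was that of Eif3h, which stood at 119.9, 104, 118 and 111 CPM in sham and 119, 169.6, 188 and 158 CPM in splenic C26, and at 107, 109, 124 and 124 CPM in control and 156, 178, 157 and 159 CPM in subcutaneous C26. Replicate 1 of splenic C26 lay inside the range of sham for Eif3h, and the log2 fold changes were 0.49 ± 0.13 (adjusted p = 0.00654) and 0.48 ± 0.13 (adjusted p = 0.00695), the second of which did not pass with upper-quartile scaling (0.24, adjusted p = 0.0537). Per kilobase of exon, Eif3a stood at 25.4 CPM per kb in sham and 108.2 in splenic C26, while Eif3h stood at 70.1 and 98.6.

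The remaining eIF3 subunits filled the range between these. In splenic C26 the log2 fold changes were 1.01 for Eif3e, 0.93 for Eif3d, 0.85 for Eif3f and 0.85 for Eif3l, and 0.72 for Eif3k, 0.66 for Eif3m and 0.64 for Eif3i. In subcutaneous C26 the same genes gave 1.07, 0.79, 0.90, 0.93, 0.66, 0.75 and 0.57. The libraries of subcutaneous C26 lay above control for all 12 subunits, where 25.2% of all genes did. Those of splenic C26 lay above sham for 8 of 12, where 21.1% of all genes did, the exceptions being Eif3e, Eif3h, Eif3i and Eif3m. Eif3d shares 2151 exon bases with an annotated antisense gene, and the strand setting of the counts is not given in the sources used here.

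All 5 genes of the eIF4A helicases and their cofactors (Eif4a1, Eif4a2, Eif4a3, Eif4b and Eif4h) rose in both comparisons. Eif4a1, which encodes the main RNA helicase that unwinds mRNA leaders (chromosome 11, 69666936 to 69672423, minus strand), stood at 59.6, 72.2, 64 and 60.9 CPM in sham and 105, 160.4, 268 and 295 CPM in splenic C26. In control it stood at 66.4, 65.2, 59.6 and 56.8 CPM and in subcutaneous C26 at 209, 211, 99.6 and 204 CPM. Tumour and tumour-free libraries did not overlap, although subcutaneous C26 replicate 3 lay far below the other 3, and the log2 fold changes were 1.69 ± 0.28 (adjusted p = 0.000376) and 1.54 ± 0.28 (adjusted p = 0.000668). Eif4a2 encodes a near-identical helicase and was the more abundant of the pair per kilobase of exon, at 62 CPM per kb in sham against 14.8 for Eif4a1. It stood at 359, 302, 354 and 308 CPM in sham and 432, 789.8, 847 and 899 CPM in splenic C26, and at 286, 303, 339 and 359.8 CPM in control and 579.6, 752, 680.3 and 726 CPM in subcutaneous C26. Eif4a2 rose by 1.17 ± 0.19 (adjusted p = 0.000352) and 1.09 ± 0.19 (adjusted p = 0.000542) with no overlap. For Eif4a1 over Eif4a2 the log2 count ratio was -2.59, -2.06, -2.47 and -2.34 in sham and -2.04, -2.30, -1.66 and -1.61 in splenic C26, and -2.11, -2.21, -2.51 and -2.66 in control and -1.47, -1.84, -2.77 and -1.83 in subcutaneous C26. This ratio overlapped between groups in both series, so a change in the balance of the 2 helicase genes was not separable from the spread of the libraries.

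Eif4b, a cofactor that stimulates the helicase, rose by 1.21 ± 0.19 (adjusted p = 0.000262) and 1.34 ± 0.19 (adjusted p = 0.000147), and its libraries did not overlap. Eif4a3, whose product sits in the exon junction complex rather than in eIF4F, rose by 1.0 ± 0.18 and 0.91 ± 0.18. Eif4h, another helicase cofactor, showed the smallest rise of the 5. It stood at 121, 127, 126 and 127 CPM in sham and 132, 178, 218 and 233 CPM in splenic C26, and at 126, 124, 116 and 114 CPM in control and 149, 167, 139.6 and 165 CPM in subcutaneous C26. No libraries overlapped in either series. Eif4h rose by 0.60 ± 0.15 (adjusted p = 0.00367) in splenic C26, while its rise of 0.37 ± 0.15 in subcutaneous C26 lay close to the threshold (adjusted p = 0.0465). That second call was lost without control replicate 1 (0.081), 2 (0.0908), 3 (0.0964) or 4 (0.0974), and without subcutaneous C26 replicate 1 (0.0839), 2 (0.162) or 4 (0.137), values in brackets being adjusted p. It was also lost with RLE scaling (0.36, adjusted p = 0.0603), with upper-quartile scaling (0.13, adjusted p = 0.376) and with a filter at 5 CPM (0.27, adjusted p = 0.108). A stricter threshold of 0.01 ended it too. Its adjusted p was under 0.05 in 9 of 19 alternatives, where the run with the stricter threshold is counted at 0.05.

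Eif4e was not among the genes that rose. It encodes eIF4E, the subunit of eIF4F that holds the mRNA cap (chromosome 3, 138526179 to 138559696, plus strand). Its levels were 93.4, 82.5, 89.96 and 87.6 CPM in sham and 64.6, 71.3, 75 and 55.8 CPM in splenic C26. In control it stood at 80.3, 86.3, 91.9 and 101 CPM and in subcutaneous C26 at 52.1, 50.6, 106 and 56.1 CPM. All 4 splenic C26 libraries lay below all 4 sham libraries, and 3 of 4 subcutaneous C26 libraries lay below all control libraries, with replicate 3 above them. The log2 fold changes were -0.41 ± 0.20 (adjusted p = 0.094) and -0.44 ± 0.20 (adjusted p = 0.0743), so neither passed. The subcutaneous value rested on replicate 3, without which it was -0.76 (adjusted p = 1e-04). With splenic C26 replicate 1 and subcutaneous C26 replicate 3 both left out, Eif4e was called lower in both comparisons (-0.39, adjusted p = 0.00603, and -0.76, adjusted p = 3.69e-05). That omission was chosen after seeing the data, and 32.8% and 31.5% of all genes were called lower in it. Over 19 alternatives each, the log2 fold change of Eif4e lay between -0.62 and -0.32 in splenic C26, passing in 5, and between -0.85 and -0.37 in subcutaneous C26, passing in 7. In splenic C26 the passes with no library left out were upper-quartile scaling, a 5 CPM filter (edgeR adjusted p = 0.0465) and a fit of 8 libraries (0.032). In subcutaneous C26 they were that scaling, that filter, DESeq2 (0.048) and limma (0.0357).

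Of the other genes grouped with Eif4e, Eif4e2 and Eif4enif1 rose and Eif4e3 did not pass. Eif4e2 encodes 4EHP, a cap-binding protein that blocks rather than drives initiation, and stood at 62.9, 55.4, 64.2 and 67.6 CPM in sham and 59.7, 83.9, 94 and 101 CPM in splenic C26. It stood at 59.4, 63.9, 68.2 and 75.8 CPM in control and 86.7, 102, 81.7 and 93.3 CPM in subcutaneous C26. Replicate 1 of splenic C26 lay inside the sham range, and the log2 fold changes were 0.44 ± 0.15 (adjusted p = 0.0215) and 0.44 ± 0.15 (adjusted p = 0.0206). The first call of Eif4e2 was lost without sham replicate 2 (adjusted p = 0.0611) or splenic C26 replicate 3 (0.0603) or 4 (0.0767). The second was lost when control replicate 1 (0.0733) or 2 (0.0611) was left out, and equally for subcutaneous C26 replicate 2 (0.0892) or 4 (0.0584). The log2 ratio of Eif4e to Eif4e2 counts was 0.57, 0.58, 0.49 and 0.37 in sham and 0.11, -0.23, -0.32 and -0.85 in splenic C26, and 0.43, 0.43, 0.43 and 0.41 in control and -0.74, -1.01, 0.38 and -0.73 in subcutaneous C26. Every tumour library lay below its tumour-free group in this ratio, which needs no scaling between libraries, and the mean differences were -0.83 and -0.95. Eif4enif1, a carrier of eIF4E into the nucleus and into processing bodies, stood at 39.8 ± 2.61 CPM in sham (SD, n = 4), 46.5, 55.8, 54 and 56.9 CPM in splenic C26, 36.1, 37.7, 42.8 and 45.5 CPM in control and 53.9, 60, 54.8 and 58.2 CPM in subcutaneous C26. It rose by 0.42 ± 0.10 (adjusted p = 0.00388) and 0.48 ± 0.10 (adjusted p = 0.00172). Eif4e3 stood at 58.7, 56.9, 56.4 and 55.5 CPM in sham, 42.4, 66.8, 51.2 and 54.7 CPM in splenic C26, 59.4, 54, 63.8 and 68.1 CPM in control and 49, 61.9, 67.9 and 61.3 CPM in subcutaneous C26, and its groups overlapped with log2 fold changes of -0.08 ± 0.14 and -0.03 ± 0.14. The log2 ratio of Eif4e to Eif4e3 also overlapped between groups.

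**Figure D3:**
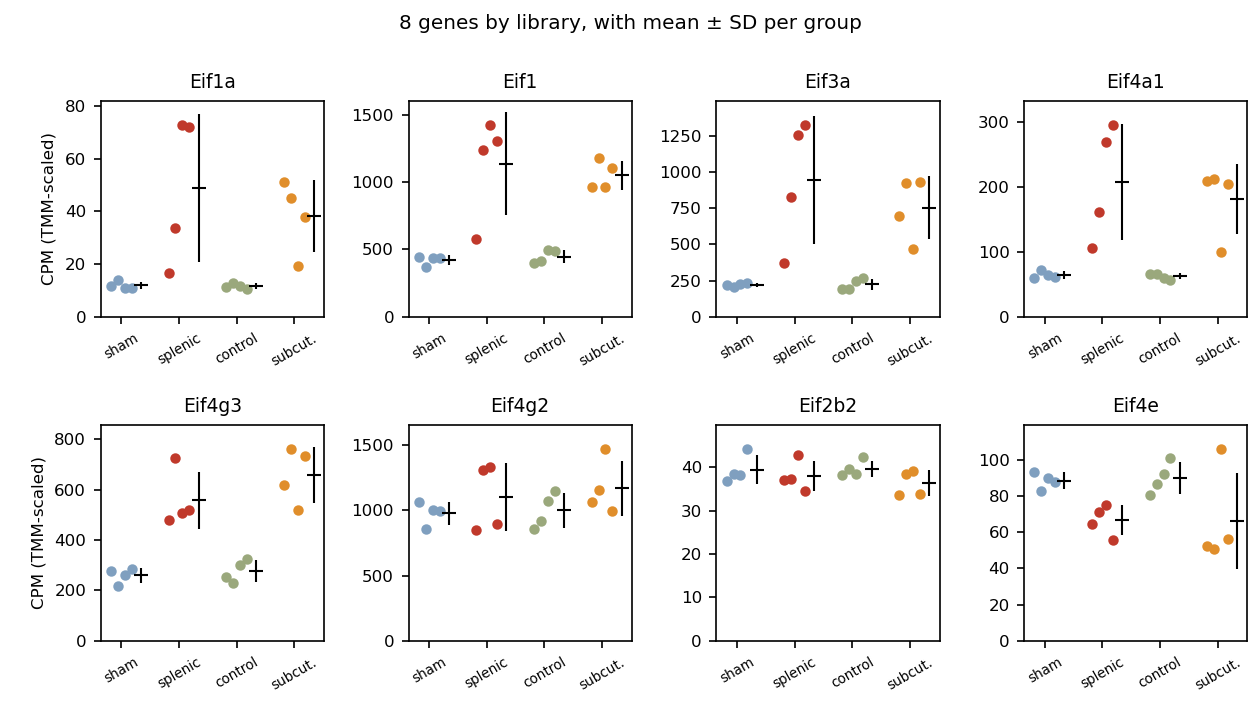
CPM of 8 initiation factor genes in each library (points; vertical axis from 0) with the mean ± SD of each group of 4 (black). Eif1a, Eif1, Eif3a, Eif4a1 and Eif4g3 lie higher in all tumour libraries than in their tumour-free group, Eif4g2 and Eif2b2 overlap, and Eif4e lies lower in 7 of 8 tumour libraries.

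Of the eIF4G scaffold genes, Eif4g1 and Eif4g3 rose and Eif4g2 did not pass. The products of Eif4g1 and Eif4g3 bind eIF4E, eIF4A and eIF3 at once. Eif4g3 (chromosome 4, 137993022 to 138208508, plus strand) stood at 279, 219, 259.7 and 283 CPM in sham and 479, 726, 508 and 519 CPM in splenic C26, and at 254, 231, 302 and 323 CPM in control and 618, 762, 519.6 and 734 CPM in subcutaneous C26. The groups did not overlap, and it rose by 1.10 ± 0.18 (adjusted p = 0.000271) and 1.25 ± 0.18 (adjusted p = 0.000136). Eif4g1, the principal scaffold, stood at 897, 752, 870 and 918 CPM in sham and 1002, 1538, 1682 and 1357 CPM in splenic C26, and at 734, 728, 963 and 1039 CPM in control and 1276, 1557, 1372 and 1487 CPM in subcutaneous C26. Its rise was 0.70 ± 0.18 (adjusted p = 0.00478) and 0.72 ± 0.18 (adjusted p = 0.00429), again with no overlap. The log2 ratio of Eif4g1 to Eif4g3 was lower in all subcutaneous C26 than in all control libraries, 1.05, 1.03, 1.40 and 1.02 against 1.53, 1.65, 1.67 and 1.69, but in splenic C26 replicate 3 reached the sham range. Eif4g2 encodes DAP5, a scaffold that lacks the site for eIF4E, and stood at 1063, 854, 1006 and 996 CPM in sham and 849.8, 1313, 1337 and 899 CPM in splenic C26. In the other series it stood at 858, 921, 1072 and 1150 CPM in control and 1062, 1156, 1473 and 997 CPM in subcutaneous C26. These groups overlapped, with log2 fold changes of 0.17 ± 0.19 and 0.23 ± 0.19. The log2 ratio of Eif4g1 to Eif4g2 was -0.25, -0.18, -0.21 and -0.12 in sham and 0.24, 0.23, 0.33 and 0.59 in splenic C26, and -0.22, -0.34, -0.16 and -0.15 in control and 0.26, 0.43, -0.10 and 0.58 in subcutaneous C26. In this ratio every tumour library lay above its tumour-free group.

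**Figure D4:**
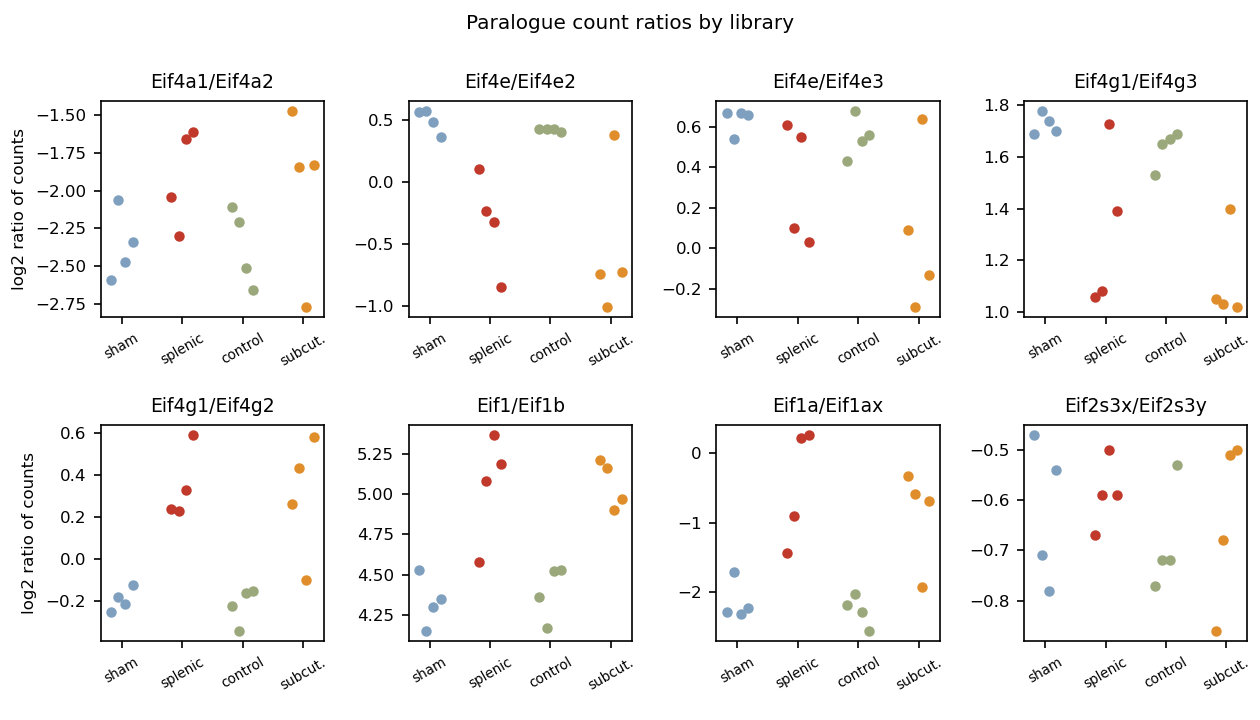
Log2 ratio of raw counts of 8 paralogue pairs in each library, by group; the vertical axes differ between panels. Tumour libraries lie entirely below their tumour-free group for Eif4e/Eif4e2 and entirely above it for Eif4g1/Eif4g2, Eif1/Eif1b and Eif1a/Eif1ax, while Eif2s3x/Eif2s3y and Eif4a1/Eif4a2 overlap.

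Among the genes whose names start with Eif5, Eif5b and Eif5 rose in both comparisons, Eif5a in splenic C26, and Eif5a2 in neither. Eif5b encodes the GTPase that joins the large subunit and stood at 177, 136, 165 and 149 CPM in sham and 181, 362, 343 and 339.5 CPM in splenic C26, and at 137, 135, 173 and 174 CPM in control and 326, 419, 263 and 325 CPM in subcutaneous C26. The groups did not overlap, and it rose by 0.97 ± 0.20 (adjusted p = 0.00157) and 1.11 ± 0.20 (adjusted p = 0.000699), although 1643 of its exon bases are shared with Rev1 on the opposite strand. Eif5, which triggers GTP hydrolysis by eIF2, rose by 0.75 ± 0.22 and 0.68 ± 0.22. The second call of Eif5 was lost without control replicate 1 (adjusted p = 0.0523), control replicate 2 (0.0527) or subcutaneous C26 replicate 2 (0.0791). Eif5a, whose product carries the modified amino acid hypusine and acts in elongation, stood at 274, 240.1, 281 and 273 CPM in sham and 239, 359.8, 554 and 389 CPM in splenic C26. It stood at 257, 262, 276 and 283 CPM in control and 346, 395, 315 and 339.5 CPM in subcutaneous C26. Splenic C26 replicate 1 lay at the level of the lowest sham library and replicate 3 was the highest, and the rise of 0.53 ± 0.19 (adjusted p = 0.0277) became 0.3 without replicate 3 (adjusted p = 0.126) and 0.71 without replicate 1. That call was also lost without sham replicate 2 (0.0684) or 4 (0.0508) or splenic C26 replicate 4 (0.0513). In subcutaneous C26 all libraries of Eif5a lay above control, yet 0.37 ± 0.19 did not pass (adjusted p = 0.108). Eif5a2 was scarce, at 1.37, 1.63, 1.07 and 1.51 CPM in sham and 1.79, 1.01, 0.846 and 0.971 CPM in splenic C26, and 1.56, 1.84, 1.31 and 1.29 CPM in control and 1.11, 1.27, 0.331 and 0.889 CPM in subcutaneous C26. Subcutaneous C26 lay below control in every library for Eif5a2, with a log2 fold change of -0.72 ± 0.35 (adjusted p = 0.0935), and splenic C26 overlapped with sham (-0.26 ± 0.34, adjusted p = 0.536). The log2 count ratio of Eif5a to Eif5a2 was higher in every subcutaneous C26 library than in control, by 1.23 on average, and overlapped between splenic C26 and sham.

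Eif6 encodes the factor that keeps the large subunit from joining too early and is also needed for its maturation. It stood at 21.5, 23.5, 23.6 and 24.7 CPM in sham and 24.8, 35.9, 50.7 and 51 CPM in splenic C26, and at 23.1, 22.4, 24.2 and 23.5 CPM in control and 36.9, 39.97, 29.1 and 35.8 CPM in subcutaneous C26. No libraries overlapped, and Eif6 rose by 0.80 ± 0.18 (adjusted p = 0.00234) and 0.60 ± 0.18 (adjusted p = 0.0124). The second call was lost without subcutaneous C26 replicate 2 (adjusted p = 0.0563).

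No initiation factor gene was found to respond differently to the 2 tumour routes. The difference between the splenic and the subcutaneous effect passed for 0 of 45 genes in edgeR, for 0 at an unadjusted p under 0.05, and for 0 in DESeq2 and 0 in limma. Among all 13320 genes 0 passed in edgeR, 86 in DESeq2 and 0 in limma, and 6.39% had an unadjusted p under 0.05 in edgeR. The estimates lay between -0.15 for Eif4g3 (95% interval -0.67 to 0.37) and 0.46 for Eif5a2 (-0.57 to 1.49). For Eif3a the difference was 0.34 (-0.59 to 1.27) and for Eif1a 0.31 (-0.79 to 1.41), and such wide intervals do not show that the routes act alike. For Eif4e it was 0.03 (-0.56 to 0.62). Splenic C26 set directly against subcutaneous C26 called 0 of 45 genes (0 at an unadjusted p under 0.05 in edgeR, 1 in DESeq2, which was Eif4h). Among all genes that contrast called 0 in edgeR, 163 in DESeq2 and 0 in limma, and 10.2% had an unadjusted p under 0.05 in edgeR and 11.3% in DESeq2. The route cannot be told apart from the title prefix in this contrast. Without splenic C26 replicate 1 and subcutaneous C26 replicate 3 together Eif4h passed, 0.39 higher in splenic C26 (adjusted p = 0.0381), in a fit that called 591 genes higher and 367 lower of 13320 (7.19%). Sham against control called 0 of 45 genes, where 1 of 13320 genes (0.00751%) passed, lower in sham, and likewise 0 at an unadjusted p under 0.05 in edgeR, DESeq2 and limma, where 285 of all genes had one in edgeR; over all genes DESeq2 called 58 and limma 7.

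Most of the called regulators of initiation in the wider pathway rose, and a few fell. Of 17 kinase and repressor genes 10 rose and 2 fell in splenic C26, and 11 rose and 3 fell in subcutaneous C26. That is 58.8% and 64.7% higher, beside 28.1% and 27.0% of all genes, with 23.9% and 23.1% of all genes lower. The share of the list that fell was below that of all genes, and nothing is read from it. Eif4ebp1, which encodes the repressor that competes with eIF4G for eIF4E, stood at 38.5, 40.7, 38 and 33 CPM in sham and 161, 581, 595 and 601 CPM in splenic C26, and at 39.2, 33.4, 38.5 and 30.4 CPM in control and 499, 593, 183 and 525 CPM in subcutaneous C26. It rose by 3.69 ± 0.40 and 3.67 ± 0.40 with no overlap. Mknk2, a kinase that phosphorylates eIF4E, rose by 2.71 ± 0.39 and 2.76 ± 0.39. Ppp1r15a, the stress-induced subunit of the phosphatase that restores eIF2, rose by 2.87 ± 0.37 and 2.09 ± 0.36, and Impact, an inhibitor of the eIF2 kinase Gcn2, by 1.87 ± 0.18 and 2.65 ± 0.18. The eIF2 kinase gene Eif2ak2 fell by 1.04 and 1.12 on the log2 scale, and Pdcd4, an inhibitor of the eIF4A helicase, by 0.73 and 0.45. The eIF2 kinase gene Eif2ak3 gave -0.35 ± 0.19 in splenic C26, which did not pass, and fell by 0.49 ± 0.19 in subcutaneous C26 (edgeR adjusted p = 0.0407). Another, Eif2ak1, gave 0.30 ± 0.12 in splenic C26 (0.0511) and rose by 0.47 ± 0.12 in subcutaneous C26 (0.0059). Eif2ak4, which encodes Gcn2, rose by 0.78 ± 0.21 and 0.92 ± 0.21.

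Of 10 genes for partners that bind mRNA with eIF4F or help the small subunit, 7 rose in splenic C26 and 5 in subcutaneous C26, and 0 fell, among them Pabpc1, the poly(A)-binding protein that touches eIF4G, by 1.23 ± 0.26 and 0.98 ± 0.26. The shares higher were 70% and 50%, beside the same 28.1% and 27.0% of all genes. Of 11 elongation and termination factor genes 4 rose in each comparison and 0 fell, with a median of 0.38 in both. The share higher, 36.4% in each, is near that of all genes, and nothing is read from it. Eef2, the translocase of elongation, rose by 1.05 ± 0.18 and 1.16 ± 0.18, whereas Eef1a1 (0.47 ± 0.29 and 0.57 ± 0.30) and Eef1a2 (0.38 ± 0.18 and 0.38 ± 0.18) did not pass. Of the 2 genes for the enzymes that make hypusine on eIF5A, Dhps rose by 0.95 ± 0.15 and 0.86 ± 0.15 and Dohh did not pass (0.29 ± 0.13 and 0.17 ± 0.13). These counts describe the lists, and the lists were not tested against each other.

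The promoters of the initiation factor genes were searched for 2 short motifs, read on both strands. The first was CACGTG, the palindromic E-box that Myc and related factors bind. The second was TGATGNAA, a core of the element bound by ATF4. RefSeq windows of 250 bases before to 50 after an annotated start (GRCm38.p6, the build of mm10) were at hand for 37 of the 45 genes. CACGTG occurred in at least 1 window of 10 of 37 genes (27%), against 11.7% of the 10122 genes of the count table with a window and 8.09% of all 27025 genes. The number of windows differed between genes, and a gene with more windows has more chances of a match. TGATGNAA occurred in 1 of 37 (2.7%), in Eif2s3x, against 2.75% of the table's genes. The 10 genes with CACGTG were Eif1b, Eif3a, Eif3f, Eif3k, Eif4a1, Eif4e, Eif4g1, Eif4h, Eif5a and Eif5a2. Of these, 7 rose in both comparisons, Eif5a rose in splenic C26, and Eif4e and Eif5a2 passed in neither, so the motif was present both in genes that rose and in genes that did not. A match is only a description of these letters. The following stretches are 60 bases upstream of a start that overlap no annotated exon, shown 5′ to 3′ with the motif in capitals, for genes that rose in both comparisons (Eif3f, Eif3k, Eif4a1 and Eif4g1), for Eif5a and for Eif5a2.
Eif3f, chr7:108934320-108934379, plus strand: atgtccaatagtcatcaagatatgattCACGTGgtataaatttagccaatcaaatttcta
Eif3k, chr7:28981900-28981959, minus strand: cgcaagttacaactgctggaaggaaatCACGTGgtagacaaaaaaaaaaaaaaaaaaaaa
Eif4a1, chr11:69672580-69672639, minus strand: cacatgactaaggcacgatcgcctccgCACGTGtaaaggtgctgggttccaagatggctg
Eif4g1, chr16:20672646-20672705, plus strand: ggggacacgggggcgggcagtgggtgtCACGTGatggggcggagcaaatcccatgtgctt
Eif5a, chr11:69921428-69921487, minus strand: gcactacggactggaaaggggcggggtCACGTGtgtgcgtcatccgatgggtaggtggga
Eif5a2, chr3:28781133-28781192, plus strand: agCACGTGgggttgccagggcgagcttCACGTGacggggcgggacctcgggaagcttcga
The first motif base lies at position -68 from the start in Eif3f, -44 in Eif3k, -189 in Eif4a1 and -54 in Eif4g1. Eif5a2, whose transcripts were the scarcest of the family, carries 2 copies within this stretch.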

How the data were processed

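The members and lists were chosen with earlier results of these data known. Quadriceps RNA was sequenced as 75-base paired ends, with isolation and sequencing of all samples done together, per the labels' protocols. The authors deposited raw read counts per gene symbol, made with STAR and featureCounts per the labels; the submitters' processing notes name FastQC, STAR, edgeR and mm10. Which versions, annotation and strand option they used is not given in the sources used here. A further deposited table holds log2 values; less a constant for each gene and each library they differed from log2 CPM of the counts by an SD of 0.00684 over the 6197 genes with a mean count of 500 or more. Blank lines of the count table (4013) were left out.

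Counts were fitted with edgeR 4.0.16 in R 4.3.3 (filterByExpr, which removed no gene, TMM, robust quasi-likelihood, 1 mean per group over 16 libraries), tested on simulated data, with Benjamini-Hochberg adjustment over all genes. CPM are TMM-scaled, and paralogue ratios use counts plus 0.5. How reads were split between genes of similar sequence was not checked for any paralogue pair, so their ratios carry that uncertainty. Exon lengths and coordinates are from GENCODE M21. Of the 45 genes, 8 share exon bases with another protein-coding gene (Eif1ad, Eif2a, Eif2b4, Eif2d, Eif3m, Eif4a2, Eif4e3 and Eif5b). Genes given by library were the highest and lowest of each role in each tumour comparison and fixed paralogue pairs; those placed in figures and promoter lines were picked later. Any pair within a group had a chi-square of 13 or more for each degree of freedom, more than sampling noise gives; this does not show that they came from separate animals. Alternatives were RLE and upper-quartile scaling, other filters and thresholds, DESeq2 1.42.0, limma 3.58.1 on the deposited log2 values, fits of 8 libraries, and omission of libraries; omission of splenic C26 replicate 1 with subcutaneous C26 replicate 3 was chosen after seeing the data.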

Additional observations from a re-analysis of the deposited data

Results flagged for a closer look

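Of 180 sets of 4 libraries (45 genes in 4 groups), 16 held a library whose gap to its nearest neighbour took more of the group's range than Dixon's 95% limit allows; chance alone flags about 5% of sets. In 9 of the 16 the library set apart was splenic C26 replicate 1, below the other 3. Its values there were 160.5 CPM for Eif2s2 (others 294 to 305), 39.4 CPM for Eif2b1 (others 80.2 to 88.3), 42.7 CPM for Eif2b4 (others 76.1 to 82.1), 129 CPM for Eif3b (others 266 to 276), 195 CPM for Eif3c (others 369 to 400.4), 106 CPM for Eif3e (others 215 to 227), 59.7 CPM for Eif3g (others 131 to 138), 64.9 CPM for Eif3l (others 106 to 114) and 181 CPM for Eif5b (others 339.5 to 362). Subcutaneous C26 replicate 3 stood apart in 2 genes and in opposite directions, at 99.6 CPM for Eif4a1, below the others (204 to 211), and at 106 CPM for Eif4e, above them (50.6 to 56.1). In both genes it lay on the side of the control libraries, as it did in the median of all 45. Subcutaneous C26 replicate 2 was set apart as the highest for Eif3h at 178 CPM (others 156 to 159), and splenic C26 replicate 2 for Eif4g3 at 726 CPM (others 479 to 519). Among tumour-free libraries, sham replicate 2 was low for Eif1 at 369 CPM (others 434 to 443) and for Eif2d at 23.2 CPM (27.3 to 28.1), and sham replicate 4 was high for Eif3b at 119 CPM (107 to 108). Hepatocyte markers summed to 133 CPM in splenic C26 replicate 1 against 2.02 CPM or less in replicates 2 to 4 of that group. Fibro-adipogenic markers summed to 739.6 CPM in it against 293, 287 and 334 CPM in replicates 2 to 4 (sham 660 to 759), and endothelial markers to 277 CPM against 148 to 211 CPM. The part of these cell types in the values was not tested.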

How the results depend on the processing

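The number of initiation factor genes called in the 2 tumour comparisons stayed within 1.5 times under each alternative run, from 33 to 39 in splenic C26 and from 30 to 38 in subcutaneous C26. These counts take both directions together. Over all genes the share called moved more, in the runs where it was taken. It went from 33.1% to 65.3% in splenic C26 and from 31.3% to 62.6% in subcutaneous C26. For splenic C26 against subcutaneous C26 the number of initiation factor genes called went from 0 to 1 when splenic C26 replicate 1 and subcutaneous C26 replicate 3, the intermediate libraries, were both left out. Called genes also lost their calls to processing. Upper-quartile scaling ended 4 calls in splenic C26 and 7 in subcutaneous C26, among them Eif2b3 and Eif4e2 in both. In a fit of 8 libraries Eif4e2 (adjusted p = 0.058) and Eif5a (0.0848) were lost in splenic C26, and Eif5a was gained in subcutaneous C26 (0.0289). RLE scaling and the filter at 5 CPM ended that of Eif4h in subcutaneous C26. Single genes that changed sign had not passed before and did not pass after. With upper-quartile scaling Eif1ax became -0.08, Eif1ad -0.14, Eif2d -0.03 and Eif4g2 -0.05 in splenic C26, and Eif2d -0.10 and Eif4g2 -0.0047 in subcutaneous C26. Eif4e3 in splenic C26 became 0.11 without the 5 doubted libraries (splenic C26 1 and 3, control 1, subcutaneous C26 3 and 4) and 0.02 without the 2 intermediate ones, and Eif2d in subcutaneous C26 became -0.0049 without the 5. Leaving out 1 library at a time gave -0.12 to 0.0047 for Eif2b2 and -0.20 to 0.03 for Eif4e3 in splenic C26, and -0.10 to 0.04 for Eif4e3 in subcutaneous C26. No paired analysis was possible because no replicate number in the labels is shared by a tumour group and its tumour-free group. Depth limits Eif5a2 most, at 0.331 to 1.84 CPM, and with 4 libraries a group the SE of log2 fold changes reached 0.38, in Eif1a.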
